A study of Homo sapiens with 10 samples.

Results

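The genes described here are 10 factors of the pluripotent state other than the SOX family: POU5F1, NANOG, PRDM14, DPPA4, ZFP42, SALL4, L1TD1, LIN28A, LIN28B and GAL. They were chosen by name, with earlier results of these data known. All 10 listed names were found among the 12125 genes of the table. Their levels were followed through the differentiation of the established human embryonic stem cell line H1 towards hepatocyte-like cells, to compare the order and the speed at which they were lost. Bulk RNA-seq was made daily from day 0 to day 3, on alternate days from day 5 to day 13, and again at day 21, in 10 unreplicated libraries, 1 for each sampled day. Day 0 cells were undifferentiated and untreated, in mTeSR1 on Matrigel. Cells of days 1, 2 and 3 were given Activin A at 100 ng per ml, a 3-day step in serum-free medium. Cells of days 5 and 7 were given FGF4 (30 ng per ml) and BMP2 (20 ng per ml), and cells of days 9 and 11 were given HGF and KGF at 20 ng per ml. The labels of days 13 and 21 name Oncostatin M (OSM) at 20 ng per ml, whereas the protocol places day 13 at the end of the 6-day HGF and KGF step, so day 13 stands here for the end of that step. All libraries came from a single line, and the table gives no measure of how another line or another differentiation would vary.

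Pluripotent cells are held in an undifferentiated state by a small group of transcription factors that bind each other's genes, with POU5F1 (OCT4) and NANOG at the centre. Further members act on chromatin or on RNA: LIN28A and LIN28B bind the precursors of the let-7 microRNAs and block their maturation, and let-7 in turn targets the transcripts of both. Several of these genes are also used outside the pluripotent state. NANOG and POU5F1 are kept on by Activin and NODAL signalling and stay on for a time in early endoderm, and LIN28B and SALL4 are known from fetal liver.

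The values are scores on a common scale, not reads. The totals of the libraries lay between 2330948 and 2362740 (1.36% apart), their medians were 81 or 82, and values of 1638 or more fell into 14 narrow levels that the libraries shared, so that a gene in this range moved in jumps. Depth is therefore unknown from the table, no counting interval could be given, and no test between days was possible. Values were not corrected for transcript length and are compared within a gene, not between genes. Changes are differences of log2(value + 1). As a yardstick, the log2 difference between days 9 and 11, which shared a medium, had an SD of 0.93 over the 500 genes nearest to a value of 10, 0.51 near 50, 0.33 near 100 and 0.28 near 500. This SD is not a replicate error, since it also holds what changed between those days. A gene was called lower or higher where the log2 difference was at least 2 (4-fold) and the larger value was at least 50. The labelled cell types were checked on marker genes that are not members. The summed level of 5 stem cell markers was 11143 at day 0 and 439 at day 21, with a high of 20040 at day 5 that came from PODXL, which is also expressed outside stem cells. That of 5 definitive endoderm markers was 15 at day 0 and 20924 at day 3, and that of 6 hepatic markers was 39 at day 0 and 64966 at day 21.

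All 10 genes were called lower at day 21 than at day 0, where 11.5% of the 9698 genes tested were. Because the members were chosen with earlier results of these data known, their shares beside those of all genes are a description only. The 10 genes did not leave together. DPPA4 was the only member called lower at day 3 (2.16% of the 8934 genes tested were), and POU5F1 was at 26.3% of its day 0 level by then. NANOG, PRDM14, L1TD1 and GAL collapsed between days 3 and 7, in FGF4 and BMP2. Over that step POU5F1 (-3.85 on the log2 scale) and DPPA4 (-2.08) were also called lower, and PRDM14 was under the minimum value for a call. LIN28A and SALL4 were at 100% and 85.3% of day 0 on day 7, after highs on day 5, and were lower in each later library, and LIN28B declined slowly and kept 17.3% of its level at day 21. In these bulk libraries, fewer cells with a transcript and less of it per cell cannot be told apart.

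**Figure D1:**
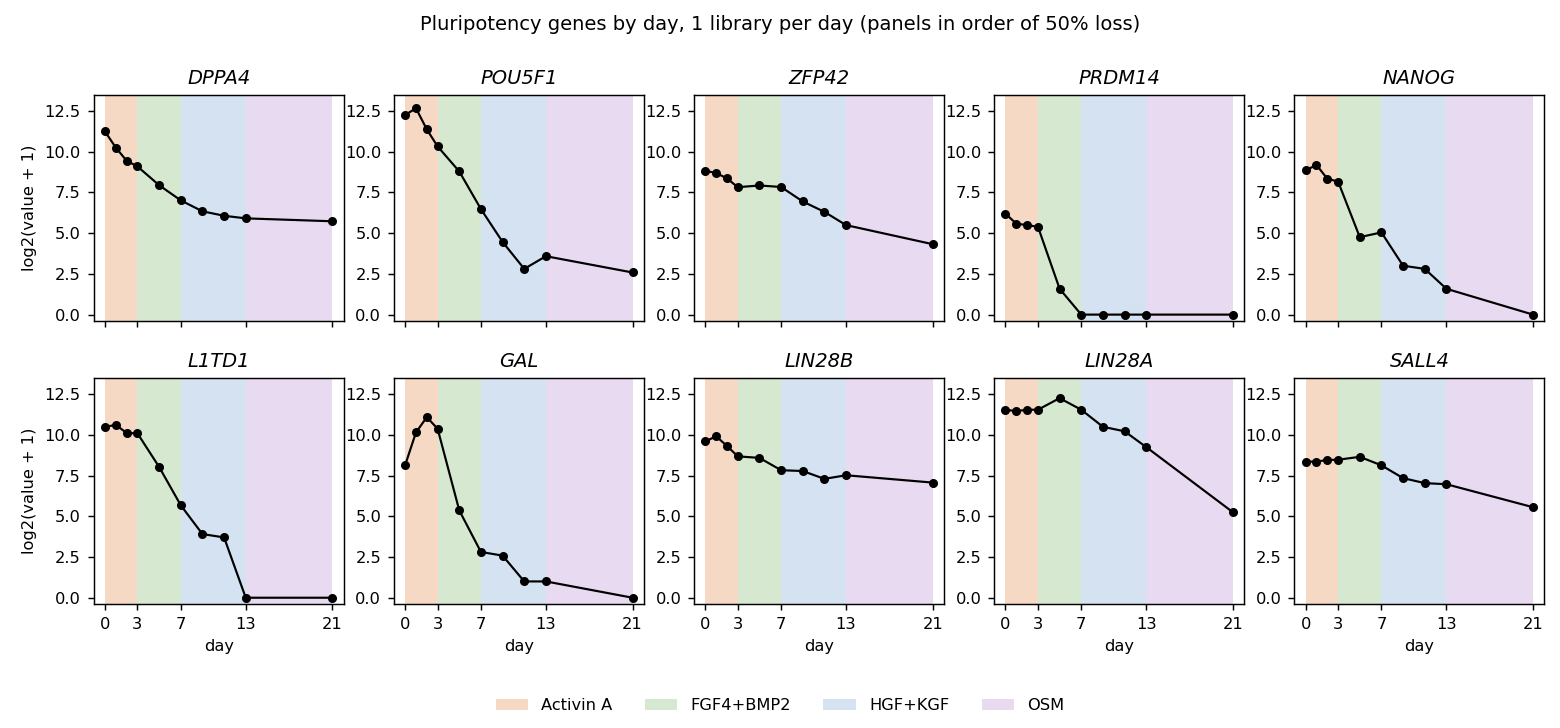
Level of each gene (vertical axes, log2(value + 1)) by day (horizontal axes), 1 panel per gene in order of 50% loss, shaded by step of the protocol, with 1 point per library and no error bar because each day has 1 library. In values, POU5F1 ran from 4861 at day 0 to 5 at day 21, whereas LIN28A was still at 2970 on day 7 and LIN28B at 133 on day 21.

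POU5F1 (ENSG00000204531, chr6:31130253-31138451 of the table, minus strand), a POU-domain transcription factor without which pluripotency is not kept, had values of 4861, 6498, 2640, 1280, 440, 88, 21, 6, 11 and 5 from the first to the last sampled day. The level of day 1 was higher than that of day 0 by 0.42 on the log2 scale, 1.4 times the SD of genes at that level, and both values lie on shared levels of the scale. From day 1 on each library was below the one before, apart from day 13, whose 11 against 6 at day 11 (a log2 difference of 0.78 at an SD of 1.12) is within the spread. The log2 change was -1.92 in Activin A (day 0 to 3), -3.85 in FGF4 and BMP2 (day 3 to 7) and -2.89 in HGF and KGF (day 7 to 13). Between days 7 and 9 POU5F1 was called lower, with -2.02 on the log2 scale, the one call among the 7 members tested, where 0.245% of 8585 genes were. NANOG changed by -2.04 there but was under the minimum value for a call. By its value, uncorrected for length, POU5F1 stood at place 22 of 12125 genes at day 0 and at place 11501 at day 21. POU5F1 and NANOG have pseudogene copies in the genome among which the counting may divide reads, so their low values are uncertain.

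NANOG (ENSG00000111704, chr12:7940390-7947404, plus strand), a homeodomain factor, had values of 460, 582, 323, 286, 26, 32, 7, 6 and 2 from day 0 to day 13 and was listed at 0 at day 21. Through the Activin A step its lowest value was 286, with a log2 change of -0.68 from day 0 to day 3, and it then fell by 3.41 between days 3 and 5 alone. The values of days 5 and 7 (26 and 32) did not differ beyond the spread, and the later change to 7 at day 9 was -2.04 on the log2 scale at an SD of 0.93. The promoter of NANOG is shown because it holds the joined SOX and POU site through which POU5F1 is known to act on it. The 300 bases below run from 250 before to 50 after the RefSeq start on GRCh38.p14, chr12:7789152-7789451, plus strand, with the match in capitals.
NANOG promoter: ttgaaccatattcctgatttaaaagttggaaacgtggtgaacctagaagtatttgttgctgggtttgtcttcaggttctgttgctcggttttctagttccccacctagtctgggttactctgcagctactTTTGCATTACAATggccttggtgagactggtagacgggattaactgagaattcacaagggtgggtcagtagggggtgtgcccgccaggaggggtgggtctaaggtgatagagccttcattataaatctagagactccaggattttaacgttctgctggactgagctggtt

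The match at chr12:7789282-7789294 reads ATTGTAATGCAAA on the minus strand and lies 120 to 108 bases before the start. The joined SOX and POU site was searched on both strands with any base allowed at its sixth position, and 6 of 35116 RefSeq promoter windows of the same length (0.0171%) hold it. The octamer ATGCAAAT was in 1.77% of the windows and the looser ATGCNAAT, which includes every ATGCAAAT, in 2.97%, and neither was in the 6 windows of the 5 members that matched the RefSeq table (NANOG, L1TD1, DPPA4, ZFP42 and LIN28B). A match is a description of letters and not a measure of binding.

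DPPA4 (ENSG00000121570, chr3:109044988-109056419, minus strand), a chromatin-associated protein with a SAP domain, was the earliest of the members to go. Its values were 2426, 1214, 696, 545, 245, 128, 80, 66, 59 and 52, and each library was below the one before. The day 1 value was 50.04% of day 0, 3.5 times the SD on the log2 scale, and the next largest fall on that day was the -0.60 of PRDM14. The fall then slowed: the log2 change was -2.15 in the first step, -2.08 in the second, -1.10 in the third and -0.18 from day 13 to day 21, the last within the spread. DPPA4 ended at 2.14% of its day 0 level and was listed at 0 on no day. Its promoter is printed beside the LIN28B window that holds the most CG dinucleotides, here in capitals (GRCh38.p14, RefSeq, chr3:109337497-109337796, minus strand, and chr6:104940715-104941014, plus strand).
DPPA4 promoter: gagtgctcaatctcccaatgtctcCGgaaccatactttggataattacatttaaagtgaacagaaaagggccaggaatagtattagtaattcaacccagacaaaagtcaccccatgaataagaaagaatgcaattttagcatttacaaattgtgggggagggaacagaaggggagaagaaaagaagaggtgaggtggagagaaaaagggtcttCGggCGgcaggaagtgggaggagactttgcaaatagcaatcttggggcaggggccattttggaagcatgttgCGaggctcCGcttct
LIN28B promoter: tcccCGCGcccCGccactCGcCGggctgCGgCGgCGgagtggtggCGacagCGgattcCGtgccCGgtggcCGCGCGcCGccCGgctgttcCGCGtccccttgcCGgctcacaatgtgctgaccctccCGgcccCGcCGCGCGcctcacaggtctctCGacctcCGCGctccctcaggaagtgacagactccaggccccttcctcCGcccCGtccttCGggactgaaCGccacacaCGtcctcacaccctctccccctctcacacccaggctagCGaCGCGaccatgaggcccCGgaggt

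The DPPA4 window holds 5 CG and the printed LIN28B window 37, against a median of 14 over all windows (quartiles 4 and 28). NANOG holds 5, L1TD1 14, ZFP42 24 and a second LIN28B window, chr6:104956857-104957156, holds 8. For LIN28B the contrast with DPPA4 therefore depends on the window. Which window the counted transcripts start from was not tested. DNA methylation was not part of these data, and with 5 genes no order of loss is read from these numbers.

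ZFP42 (ENSG00000179059, chr4:188916925-188926204, plus strand), the zinc finger protein known as REX1 and a common marker of undifferentiated cells, fell in 2 stages. Its values were 454, 412, 328, 225, 242, 227, 122, 78, 44 and 19. The libraries of days 3, 5 and 7 lay at 225 to 242, close to 50% of day 0, and the log2 change over the FGF4 and BMP2 step was 0.01. The change was then -2.34 in HGF and KGF and -1.17 from day 13 to day 21 (2.3 times the SD). The plateau between days 3 and 7 set ZFP42 apart from NANOG, L1TD1, POU5F1 and GAL, whose log2 changes in that step were -3.12 to -7.56.

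PRDM14 (ENSG00000147596, chr8:70963886-70983562, minus strand), a PR-domain zinc finger protein that supports POU5F1 expression in human embryonic stem cells, was low throughout. Its values were 72, 47, 44, 41 and 2 on days 0, 1, 2, 3 and 5, and it was listed at 0 on days 7, 9, 11, 13 and 21. The log2 difference between days 0 and 3 was -0.80, 2.0 times the SD, and the loss fell between days 3 and 5, a log2 difference of -3.81 at an SD of 1.11. At these levels a value of 2 and a listed 0 cannot be told apart.

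SALL4 (ENSG00000101115, chr20:50400581-50419014, minus strand), a zinc finger factor of stem cells that is also present in fetal hepatic progenitors, had values of 326, 326, 350, 353, 400, 278, 161, 130, 124 and 46. The libraries of days 0 to 7 lay between 278 and 400, and the high of day 5 was 0.29 above day 0 on the log2 scale, 1.2 times the SD. Against day 0 the log2 difference was -1.01 by day 9, -1.39 by day 13 and -2.80 by day 21. SALL4 was the only member not called lower at day 13.

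**Figure D2:**
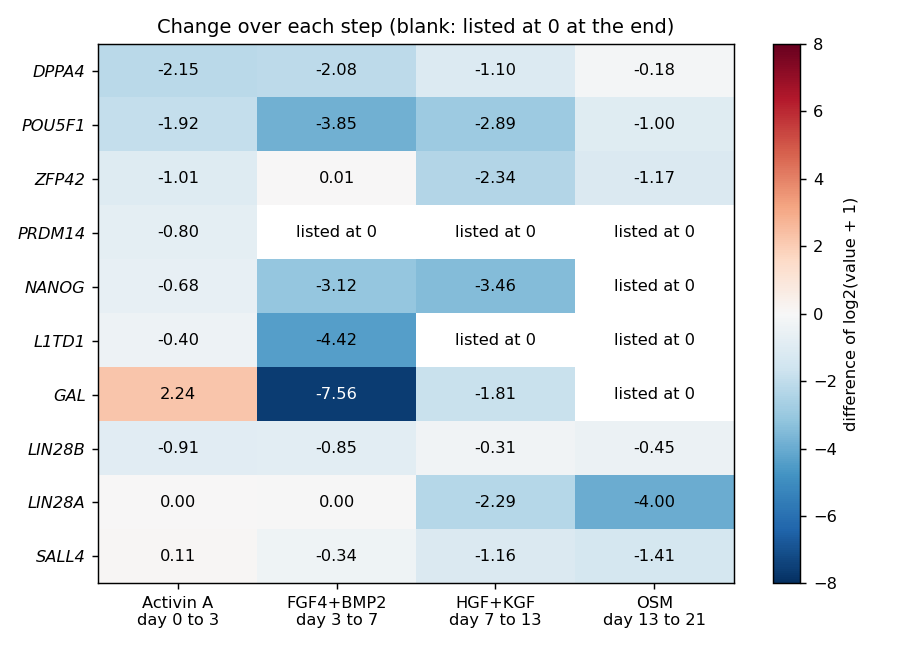
Log2(value + 1) change of each gene (rows, in order of 50% loss) over each of the 4 steps of the protocol (columns), as the number and the colour of each square, with blank squares where a gene was listed at 0 at the end of the step. GAL (-7.56), L1TD1 (-4.42) and POU5F1 (-3.85) fell in FGF4 and BMP2, where LIN28A was at 0.00, and LIN28A (-4.00) fell between days 13 and 21.

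The RNA-binding members followed separate courses. L1TD1 (ENSG00000240563, chr1:62660503-62678000, plus strand), a protein derived from the first reading frame of a LINE-1 element and a partner of LIN28A, had values of 1436, 1554, 1108, 1087, 260, 50, 14 and 12 up to day 11, with a listed 0 for days 13 and 21. Its log2 change in Activin A was -0.40 (1.5 times the SD), and it was called lower both between days 3 and 5 (-2.06, as 2.24% of 8767 genes were) and between days 5 and 7 (-2.36, as 1.34% of 8755 genes were). GAL changed by more in both (-5.01 and -2.55), but its values of 40 and 6 were under the minimum for a call in the second.

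LIN28A (ENSG00000131914, chr1:26737269-26756213, plus strand) had values of 2971, 2800, 2971, 2971, 4862, 2970, 1437, 1186, 606 and 37. The libraries of days 0, 1, 2, 3 and 7 sat on the same or a neighbouring level of the shared scale, and day 5 stood above them, 0.71 over day 0 on the log2 scale, at place 22 of 12125 genes against place 50 at day 0. The log2 change was -1.05 between days 7 and 9, -2.29 over the HGF and KGF step and -4.00 from day 13 to day 21, the one call among the 4 members tested in that last interval, where 1.62% of 8786 genes were called lower. Its day 21 value was 1.25% of day 0.

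LIN28B (ENSG00000187772, chr6:105404923-105531207, plus strand), the paralogue of LIN28A, had values of 770, 960, 636, 408, 382, 226, 218, 156, 182 and 133. Day 1 was 0.32 above day 0, 1.2 times the SD, and the largest log2 change between neighbouring libraries was -0.75, from day 5 to day 7. The log2 difference from day 0 was -0.91 by day 3, -1.76 by day 7 and -2.52 by day 21, so that LIN28B lost its level earlier than LIN28A and ended higher relative to its start (17.3% against 1.25%). The pair crossed in this sense: relative to day 0, LIN28A was above LIN28B on days 2 to 11, at day 13 they stood at 20.4% and 23.6%, and at day 21 LIN28B was above LIN28A.

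The mature let-7 family is printed because it is the known partner of both LIN28 genes. The RefSeq table holds 9 mature sequences with the same seed (bases 2 to 8, in capitals), of which 3 are shown.
hsa-let-7a-5p: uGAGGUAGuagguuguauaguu
hsa-let-7g-5p: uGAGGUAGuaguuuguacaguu
hsa-miR-98-5p: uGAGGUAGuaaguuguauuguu

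A match to this seed, CTACCTC on the transcript strand, was looked for in the longest annotated 3′ UTR of each gene (GENCODE release 29, GRCh38). LIN28B holds 4, LIN28A 1 and SALL4 1, and the UTRs of the other 7 members hold none. Of 11534 genes of the table with a UTR, 11.4% hold at least 1 match, 1.45% at least 2 and 0.0954% (11 genes) at least 4. The LIN28B UTR is long, at 4549 bases against a median of 1463.5, and that of NANOG, with no match, has 4046. Each match is given in capitals within its 25 bases, with the coordinates of the match.
LIN28A, chr1:26427363-26427369, plus strand: cacagcctattgaaCTACCTCattt
LIN28B, chr6:105078827-105078833, plus strand: cccggttgcaaagtCTACCTCatgc
LIN28B, chr6:105081254-105081260, plus strand: actgatgatagtaaCTACCTCtgag
LIN28B, chr6:105081436-105081442, plus strand: tttacagcaaaaggCTACCTCatag
LIN28B, chr6:105082875-105082881, plus strand: aatgatggtgttgaCTACCTCttga
SALL4, chr20:51782924-51782930, minus strand: aagctttaatttatCTACCTCattt

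Mature let-7 was not measured in these libraries, and whether the matches bear on these levels was not tested.

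GAL (ENSG00000069482, chr11:68451247-68452106, plus strand), the precursor of the neuropeptide galanin and a gene with high expression in human embryonic stem cells, differed from all other members at the start of the course. Its values were 280, 1129, 2164, 1324, 40, 6, 5, 1 and 1 from day 0 to day 13, and it was listed at 0 at day 21. It was the only member called higher on days 1, 2 and 3: by 2.01 on the log2 scale at day 1, where 1.02% of 8629 genes were called higher, by 2.95 at day 2 (2.41% of 8798 genes) and by 2.24 at day 3 (3.94% of 8934 genes). The fall from 1324 to 40 between days 3 and 5 (-5.01, 13.3 times the SD) was the steepest between neighbouring libraries among the members with both values above 0.

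To compare speed, the day of 50% loss was taken as the first point at which the interpolated log2 level was 1 unit below day 0, and the day of 90% loss as the point at 10% of day 0. The sampled days on either side bracket each point, and genes in the same bracket are not ordered by the sampling. DPPA4 came first (day 1.00, between days 1 and 2), followed by POU5F1 (2.11) and ZFP42 (2.98), both between days 2 and 3. A block of 5 genes lost 50% between days 3 and 5: PRDM14 (3.11), NANOG (3.19), L1TD1 (3.58), GAL (4.29) and LIN28B (4.80). LIN28A (8.91) and SALL4 (8.97) came last, between days 7 and 9. On day 9 they stood at 48.4% and 49.4% of day 0, just past the point. A median-of-ratios scaling put both after day 9 (9.23 and 9.44). Without the day 3 library ZFP42 passed 50% at day 7.01, and without the day 5 library LIN28B did at 3.40. Neighbours in that block, and LIN28A and SALL4, cannot be ordered, and 3 of the 10 genes had passed 50% by day 3, 8 by day 5 and 10 by day 9. Of the 8022 genes with a day 0 value of at least 50, 13.1% had passed 50% by day 3, 19.6% by day 5 and 30.1% by day 9.

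**Figure D3:**
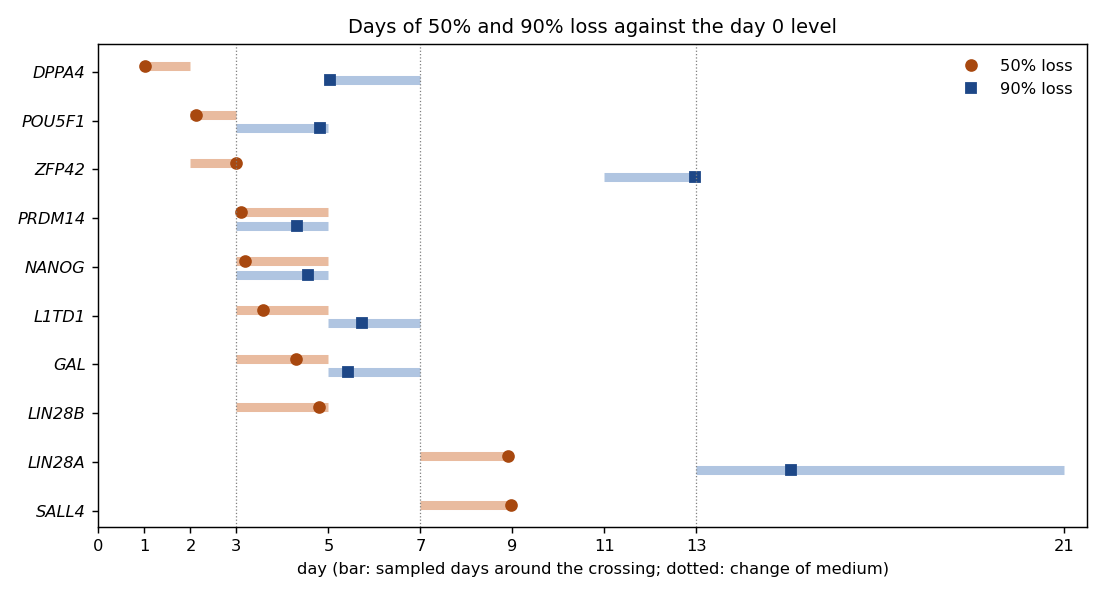
Interpolated day of 50% loss and of 90% loss (points) of each gene against its day 0 level, on a horizontal axis of days, with bars that span the sampled days on either side. LIN28B and SALL4 have no point for 90% loss, and DPPA4 leads in 50% loss (day 1.00) but not in 90% loss (day 5.04).

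The order of 90% loss differed from that of 50% loss. PRDM14 (4.33), NANOG (4.55) and POU5F1 (4.82) passed it between days 3 and 5, DPPA4 (5.04), GAL (5.43) and L1TD1 (5.73) between days 5 and 7, ZFP42 at 12.96 and LIN28A at 15.06. LIN28B and SALL4 did not pass it by day 21. The interpolated time from 50% to 90% was 1.14 days in GAL, 1.22 in PRDM14, 1.36 in NANOG, 2.15 in L1TD1, 2.70 in POU5F1 and 4.04 in DPPA4, and 6.15 and 9.98 days in LIN28A and ZFP42. PRDM14 and NANOG passed both points between the same sampled days, so the sampling does not order these short times. DPPA4, first to 50%, stood at 10.1% of day 0 on day 5, close to the 9.05% of POU5F1. By day 21, 8 members had passed 90% loss, against 6.92% of the 8022 genes.

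Compared with the 1120 genes called lower at day 21, the members had a median day of 50% loss of 3.38, against 4.25 over those genes. The quartiles of those genes were 1.74 and 6.24, and DPPA4 (1.00) lay before the first of them and LIN28A (8.91) and SALL4 (8.97) after the last. Of these genes, 38.2% had passed 50% by day 3 and 59.4% by day 5, beside 3 and 8 of the 10 members. The interval between days 3 and 5 held 5 members and 21.2% of the 1120 genes, and the first interval, days 0 to 1, held no member and 15.4%. No member lost 50% between days 5 and 7, where 22.5% of the genes did. Both empty intervals rest on values at the limit, DPPA4 at 50.04% of day 0 on day 1 and LIN28B at 49.6% on day 5. With a median-of-ratios scaling DPPA4 crossed at day 0.98 and LIN28B at day 5.03.

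**Figure D4:**
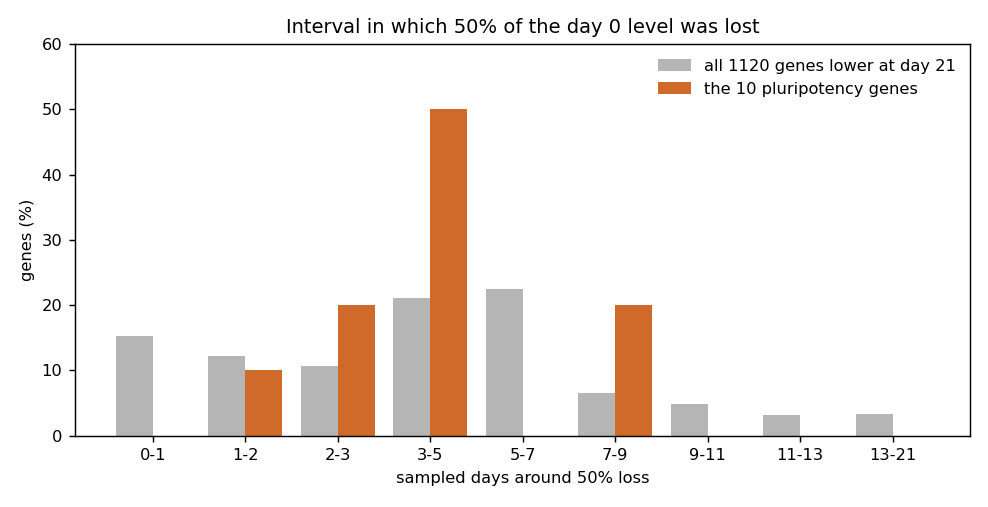
Share (percent, vertical axis) of the 1120 genes called lower at day 21 (grey bars) and of the 10 members among them (orange bars) by the interval of sampled days in which 50% of the day 0 level was lost (horizontal axis). The interval from day 3 to day 5 holds 5 members and 21.2% of the genes, and the interval from day 0 to day 1 holds no member and 15.4%.

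By step, 1 of 10 members (DPPA4) was called lower at day 3 against day 0 (2.16% of all genes), 6 at day 7 (POU5F1, NANOG, L1TD1, DPPA4, PRDM14 and GAL, against 5.98%), 9 at day 13 (6.73%) and 10 at day 21. Between days 3 and 7, 5 of 9 members tested were called lower (POU5F1, NANOG, L1TD1, DPPA4 and GAL), against 4.41% of genes. Between days 7 and 13, 4 of 7 were (POU5F1, L1TD1, LIN28A and ZFP42), against 2.46%. The median log2 difference of the 10 members from day 0 was -0.74 by day 3, -4.02 by day 7, -5.76 by day 13 and -6.24 by day 21, with genes listed at 0 taken at the pseudocount, against -0.06, -0.07, -0.10 and -0.11 over all genes tested. The comparisons with day 0 share that library.

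Other genes of the pluripotent state were taken from a list of 49, of which 39 are in the table. This list and those below were also chosen with earlier results of these data known. At day 3, 12 of 35 tested were called lower and 5 higher (over all genes 2.16% and 3.94%). The 5 that rose were KLF5, OTX2 and the Activin and NODAL pathway genes NODAL, LEFTY1 and LEFTY2, and the list median was -0.49 against -0.06 over all genes. At day 21, 28 of 36 were lower and 2 higher (over all genes 11.5% and 11.9%), KLF5 (from 2 to 74) and TBX3 (from 1 to 63, with 768 on day 7), both of which are also expressed in endodermal tissue. The list median was then -5.85. ZSCAN10, a zinc finger partner of POU5F1, USP44, a deubiquitinase, ZIC2 and VRTN had day 0 values of 550, 518, 434 and 426 and were all listed at 0 at day 21, so no size is given for their falls. ZSCAN10 was at 336, 166 and 104 on days 1, 2 and 3 (50% loss at day 1.29), between DPPA4 and POU5F1, whereas ZIC2 was still at 724 on day 3 (50% loss at day 5.14). Several genes of the list passed 50% loss before DPPA4, among them HHLA1 (day 0.45), SCGB3A2 (0.56), PHC1 (0.82) and TERF1 (0.89).

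Of 20 genes around LIN28 and let-7, 17 are in the table. At day 21, 4 of 16 tested were called lower and none higher (over all genes 11.5% and 11.9%), with a median of -1.20 against -0.11. HMGA1, a chromatin protein and let-7 target, fell from 3428 by way of 2020 on day 7 and 1248 on day 13 to 218 (-3.97), and MYCN, MYC and TRIM71, a ubiquitin ligase repressed by let-7, had log2 differences of -5.34, -4.40 and -3.19. The other genes tested were not called. Among them were HMGA2 (-1.63, with 1278 on day 5 against 641 at day 0), IGF2BP3 (-1.78), IGF2BP1 (-0.98), IGF2BP2 (0.03) and ARID3A (0.97). MYCN fell to 39 at day 3 and stood at 330 at day 7, above its 201 of day 0. The genes that process microRNA precursors were not called, with DICER1 at 0.58 and XPO5, which exports them from the nucleus, at -1.90 at day 21. Of the relatives and partners of the members, SALL1, SALL2 and POU2F1 were among those called lower at day 21, and PRDM1 (from 3 to 104, with 216 on day 2) and PRDM6 (listed at 0 up to day 3, with 56 at the end) were called higher. SALL2 fell from 981 to 63 (-3.94) with 50% loss at day 2.84, long before SALL4, and SALL1, with 209 at day 0, stood at 39 on day 1 and 527 on day 5. MYCN and TRIM71 stand in both of the first lists. The listed genes that are not in the table were not analysed here.

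**Figure D5:**
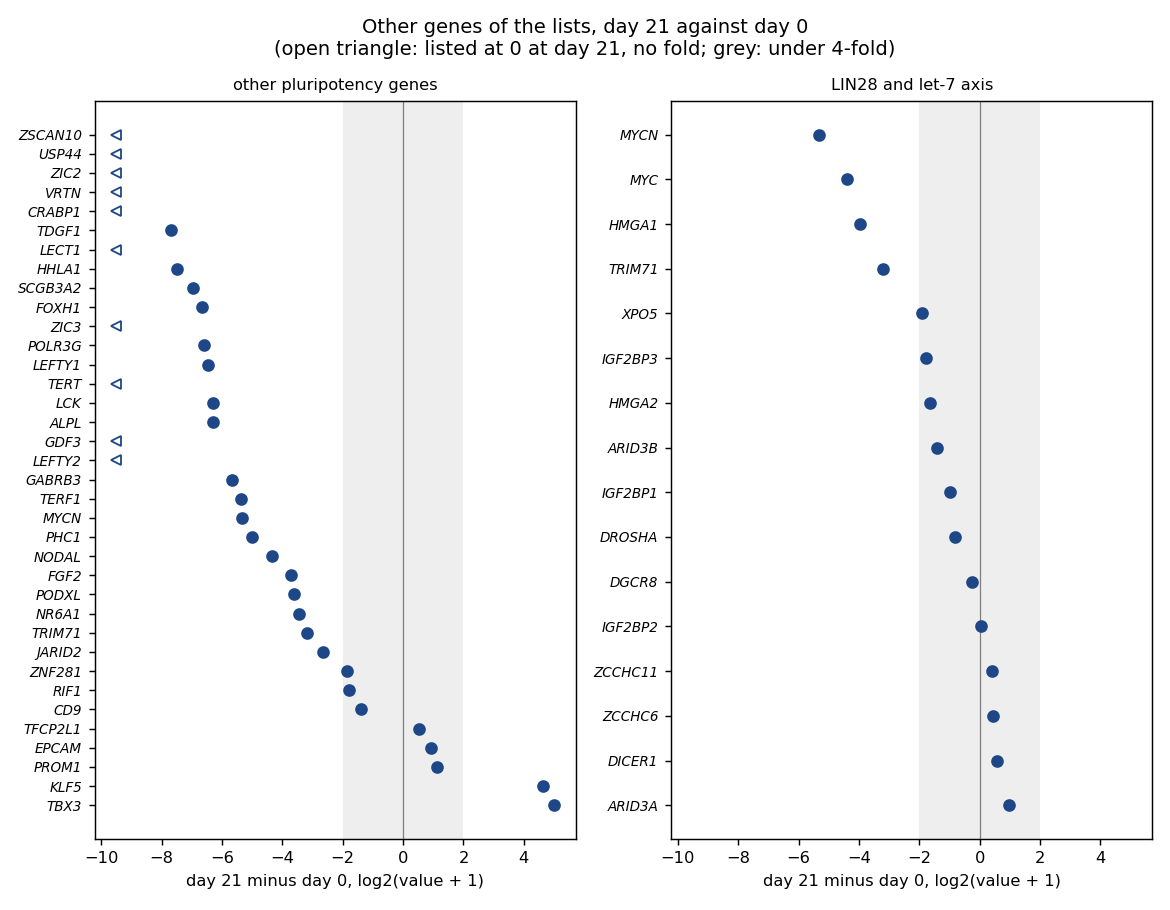
Log2(value + 1) difference between day 21 and day 0 (horizontal axis) of each gene of the pluripotency list and the let-7 list with a value of at least 50 on either day, 1 point per gene, with the grey band under 4-fold and open triangles at the left edge for genes listed at 0 at day 21. Of the pluripotency genes 28 of 36 were called lower and of the let-7 genes 4 of 16.

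Markers of other cell types moved over the same days and are given beside the falls. The summed level of 5 stromal markers went from 324 by way of 4190 on day 7 to 20361 on the last day. That of 3 of 5 listed trophoblast and amnion markers was 14 at the start and 437 on day 5. GATA3 made 388 of the latter and CDX2 48, while KRT7 went from 12 to 1. The sum of 3 of 4 endothelial markers was 572 and 1190 at days 0 and 21. Of these, TEK (52 to 768) and CDH5 (3 to 120) rose and KDR (517 to 302) fell. The sum of 4 of 5 blood markers was 42 and 774, each of them higher at day 21. That of 2 of 5 neural markers was 62 and 155, where STMN2 (5 to 120) rose and MAP2 (57 to 35) fell. Of 7 germ cell markers 3 were found, and their sum was 531 on day 3, between 114 at the start and 133 at the end. From day 0 to day 3 KIT (81 to 306) and PRDM1 (3 to 208) rose, while TFAP2C (30 to 17) did not. The paper lists KIT under early endoderm and PRDM1 as a mesenchymal marker, so this sum is not particular to germ cells. The part of these cells in the levels of LIN28A, LIN28B, SALL4 and the other members was not tested.

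Across the 10 libraries the courses of the members were similar in pairs. Pearson's r of log2(value + 1), a description over 10 libraries of a single time course in which most members decline, was 0.980 for POU5F1 and LIN28B, 0.972 for POU5F1 and DPPA4, 0.970 for NANOG and L1TD1 and 0.956 for LIN28A and SALL4, and the lowest, 0.493, was for LIN28A and PRDM14. Among 10736 other genes, the course most like that of POU5F1 was that of BEND4 (r = 0.991), followed by RCOR2 and SMARCA5. NANOG was matched best by PAICS (0.992), NDUFAF4 and CYCS, L1TD1 by C1orf187 (0.992), CRABP1 and CDK5R1, DPPA4 by DDX39B (0.994), CTD-2058B24.2 and ADD2, and ZFP42 by HNRNPAB (0.995), RRAS2 and NACC1. PRDM14 was matched best by RP11-132A1.4 (0.995), SOX2 and OLFM1, and GAL by CCZ1 (0.993), TUBB2B and LRRC8A. For LIN28B these were TSN (0.994), SKIV2L2 and WDR67, for LIN28A TEAD4 (0.982), ZNF778 and CCDC12, and for SALL4 ORC2 (0.985) and GLRX3. These names are a description of 10 points after a search of many genes. Pearson's r leaves out the size of a change. DDX39B went from 1279 at day 0 to 668 at day 21, where DPPA4 went from 2426 to 52. CCZ1 stood at 228, 315 and 116 on days 0, 2 and 21, where GAL stood at 280, 2164 and 0.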

How the data were processed

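The table that the authors deposited holds scores, rounded whole numbers normalized for GC content with EDASeq, for 12125 genes and 10 libraries. The study's methods give alignment by Bowtie2 (v2.2.0) with quantification by RSEM (v1.2.17), and name a mouse transcriptome (mm10, Ensembl release 76), although the names and identifiers are human. The submitters' notes list mm10 and hg19 without a role. Intervals are printed as the table has them, and none of the 10 members' intervals overlaps its GRCh38 gene. Sequences are of GRCh38 and were not read by those intervals. Columns were matched to days by sample title.

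Here, log2(value + 1) was used, with calls, losses and motifs as described beside the results, in Python 3.11.15, numpy 2.4.6 and pandas 2.3.3, and the code was tested on simulated data. The members and the gene lists were chosen with earlier results of these data known. Named genes are all members, from each list those called in the smaller direction and up to 4 with the largest changes between days 0 and 21 (other list genes were picked with their values in view), and the 3 genes most correlated with each member. Other pseudocounts, minimum values, fold limits, a median-of-ratios scaling, other definitions of loss and the removal of each day were tried. A few single genes, and the counts of the list of relatives and partners, are not reported here.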

Additional observations from a re-analysis of the deposited data

How the results depend on the processing

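No paired analysis was possible because each day has 1 library and the labels carry no replicate numbers. The table does not show how deep a library was, which limits low values such as those of PRDM14. Of 47 alternatives for the counts of members and the order of loss, 42 stayed within 1.5 times. Some of these could not change a result. Taking away the minimum value cannot alter a call against day 0, where each member had at least 72. Leaving out day 11 or day 13 cannot alter an order that was set by day 9. For the order, the limit was put on the number of members within 1 place, so 8 of 10 also passed. The count called lower at day 3 was 1, and was 3 at a log2 limit of 1 and 0 at a limit of 3. The count past 50% loss by day 3 was 3, and was 5 when loss was measured from the highest level of a gene. The order of loss kept 6 of 10 members within 1 place with that start, and 4 with 90% loss in place of 50% loss. Of the members, ZFP42 moved most over these alternatives: its day of 50% loss moved from 2.98 to 7.07 with a pseudocount of 10, to 7.12 with the scaling and to 7.01 without day 3, and that of LIN28B from 4.80 to 3.40 without day 5, to 2.64 with the highest level as the start and to 2.88 with the mean of days 0 and 1 as the start. LIN28B was not called lower at day 13 under the scaling (-1.97), which shifted log2 changes from day 0 by 0.01 at day 3 and 0.19 at day 21. The scaling also moved 50% loss into another interval for DPPA4 (0.98), LIN28B (5.03), LIN28A (9.23) and SALL4 (9.44). A pseudocount of 10 did so for LIN28B (5.02) and SALL4 (9.18). The causes of these moves were not tested.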
